A study of Mus musculus with 6 samples.

Results

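The interleukin-1 (IL-1) family ligands and receptors were followed in optic nerve RNA through 10 genes chosen by symbol: Il1a, Il1b, Il1rn, Il18, Il18bp, Il33, Il1r1, Il1r2, Il1rap and Il1rl1. All 10 were found among the 25755 genes measured, and all 10 were tested without any filter on low values. The libraries came from optic nerves of 6 mice aged 3 months with the genotype Nf1flox/flox; hGFAP-Cre, of which mice 1 to 3 had sham surgery and mice 4 to 6 optic nerve crush (ON-CR). In this strain Cre under the human GFAP promoter removes Nf1 from neuroglial progenitors and their descendants, while other cells of the nerve keep the gene, and the sham mice carried the same alleles. No wild-type nerve was analysed here, so every difference below is between crushed and uncrushed nerves of 1 genotype. By the paper's account, surgery was done at 6 weeks of age, so these are not nerves taken soon after crush. The paper also reports optic gliomas in crushed nerves of this genotype at the age sampled. Injury and tumor therefore cannot be told apart in these comparisons.

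IL-1alpha and IL-1beta are ligands of the same receptor, formed by IL-1R1 (Il1r1) with the accessory chain IL-1RAP (Il1rap), and recruitment of the adaptor MyD88 leads to NF-kB and MAP kinase signaling. The pathway is limited by a receptor antagonist (Il1rn) that occupies IL-1R1 without signaling, and by a decoy receptor (Il1r2). IL-18 is held in check by a soluble binding protein (Il18bp), and IL-33, a nuclear alarmin released from damaged cells, binds ST2 (Il1rl1), which also pairs with IL-1RAP. In the central nervous system microglia are a known source of IL-1, and astrocytes and oligodendrocytes of IL-33. In crushed nerves of this genotype, however, the paper's in situ hybridization found most IL-1beta-positive cells to be oligodendrocytes, not astrocytes or microglia. The study asked whether IL-1beta links nerve injury to Ccl5 production by microglia. From bulk sequencing of these nerves it named positive regulation of IL-1beta production as a top pathway. By qPCR it found Il1b and Ccl5 RNA higher in crushed than in sham nerves of this genotype, and by immunostaining more IL-1beta protein. In cultured microglia IL-1beta raised Ccl5 protein, and an NF-kB inhibitor attenuated this rise. The study also reports that an antibody against IL-1beta lowered Ccl5 RNA after crush.

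Upstream sequences are shown for the 3 genes that rose after ON-CR (Il1a, Il1rn and Il33, below) and for Il1b, the cytokine the study followed, as the genes whose transcript levels the results turn on. Each is the 250 bases before a RefSeq start site on GRCm38.p6, written 5′ to 3′ along the gene, with capitals marking matches to the TATA box (TATAAA), to the AP-1 site (TGANTCA) or to the core of a PU.1 site (GAGGAA), searched on both strands. Il33 has 2 start sites in RefSeq. Il1rn has 3, of which the upstream site and the first of the downstream sites are shown, because the windows of the downstream pair overlap.
Il1a (chr2:129309973-129310222, minus strand): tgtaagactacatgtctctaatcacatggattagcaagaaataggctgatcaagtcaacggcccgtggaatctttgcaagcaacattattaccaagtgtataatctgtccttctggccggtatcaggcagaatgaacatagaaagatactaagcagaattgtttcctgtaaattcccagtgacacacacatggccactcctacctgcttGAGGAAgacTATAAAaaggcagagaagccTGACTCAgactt
Il1b (chr2:129371140-129371389, minus strand): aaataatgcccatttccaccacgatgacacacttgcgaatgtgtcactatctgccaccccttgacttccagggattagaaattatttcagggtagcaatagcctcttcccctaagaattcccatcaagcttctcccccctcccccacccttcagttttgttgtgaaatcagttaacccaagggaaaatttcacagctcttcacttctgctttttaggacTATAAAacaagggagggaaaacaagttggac
Il1rn upstream site (chr2:24336610-24336859, plus strand): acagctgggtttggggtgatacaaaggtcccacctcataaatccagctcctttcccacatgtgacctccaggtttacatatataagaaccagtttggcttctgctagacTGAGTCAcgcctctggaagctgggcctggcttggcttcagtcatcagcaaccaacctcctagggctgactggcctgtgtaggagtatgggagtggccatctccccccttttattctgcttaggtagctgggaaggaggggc
Il1rn downstream site (chr2:24345041-24345290, plus strand): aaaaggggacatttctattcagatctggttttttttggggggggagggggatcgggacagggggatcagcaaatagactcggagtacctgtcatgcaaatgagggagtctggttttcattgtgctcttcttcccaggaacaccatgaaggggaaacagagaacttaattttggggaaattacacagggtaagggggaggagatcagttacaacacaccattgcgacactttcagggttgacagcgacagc
Il33 upstream site (chr19:29924863-29925112, plus strand): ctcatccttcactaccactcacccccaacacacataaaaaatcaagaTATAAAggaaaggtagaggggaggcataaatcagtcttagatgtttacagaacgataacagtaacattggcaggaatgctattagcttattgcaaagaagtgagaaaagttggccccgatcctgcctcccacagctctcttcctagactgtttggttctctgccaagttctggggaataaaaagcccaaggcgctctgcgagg
Il33 downstream site (chr19:29945540-29945789, plus strand): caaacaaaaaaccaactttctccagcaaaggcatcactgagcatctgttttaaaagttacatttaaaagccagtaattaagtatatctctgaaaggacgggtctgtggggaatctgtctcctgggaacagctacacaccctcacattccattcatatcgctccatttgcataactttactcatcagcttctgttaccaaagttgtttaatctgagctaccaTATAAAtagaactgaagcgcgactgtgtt

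TATAAA stood 32 bases before the start of Il1a, 31 bases before that of Il1b, and 29 and 203 bases before the downstream and upstream starts of Il33. It also matched Il18 on the minus strand, against a match anywhere in the window for 12.4% of the 32851 mouse promoters searched. The AP-1 motif was found 12 bases before the start of Il1a and 141 bases before the upstream start of Il1rn, and in 6.7% of all promoters. GAGGAA was present 41 bases before the start of Il1a, with 23.3% of promoters holding it. Besides these, the NF-kB consensus and TTCNNNGAA (GAS) were searched. The NF-kB consensus matched a window of Il1r1 only among the 15 windows of the members, and GAS matched Il1r2 only, against 7.3% and 7.0% of all promoters. No matches of different motifs overlapped, the AP-1 and GAS sites read alike on both strands, and a match describes letters in the window, not a bound site.

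Sequencing depth was 19892142 to 23620019 estimated reads in the sham libraries and 17414589 to 18977998 in the ON-CR libraries, so that every ON-CR library was the shallower. The values given are gene counts after the authors' median normalization, in which 3 reads correspond to 2.66 to 3.18. Oligodendrocyte and astrocyte markers were abundant in all libraries, and none of the cell type markers measured lay at or under 3 reads in every mouse. The libraries also differed in other ways, whose part in the results was not tested except where a value is given. Xist ranged from 2.14 to 30.9 after sham surgery and was 2708, 6357 and 6131 for ON-CR mice 4, 5 and 6. The Y-linked gene Ddx3y lay between 1291 and 1645 after sham surgery and was 976, 4.19 and 0 for mice 4, 5 and 6. Sex-linked transcripts and surgery therefore cannot be told apart in these libraries. The library labeled mouse 4 held both kinds, with the Y-linked gene Eif2s3y at 363, within the sham range of 358 to 525. Ddx3y and the Y-linked genes Kdm5d and Uty lay below every sham mouse there. Kdm5d was at 147 against 197 to 216, and Uty at 298 against 336 to 520. For qPCR of optic nerve RNA, the paper's methods describe samples of more than 1 mouse each. Its sequencing methods do not say whether libraries were pooled. Libraries are called mice here after their labels, and whether any holds RNA of more than 1 animal was not tested. B and plasma cell markers summed to 98667 in ON-CR mouse 6 against at most 2430 in any sham mouse, and airway epithelium markers to between 5606 and 8159 in sham mouse 3 and ON-CR mice 5 and 6 against at most 261 in the other mice. Limma called 0 of the 8 and 0 of the 7 markers of these lists, and 0 at an unadjusted p under 0.05. In bulk RNA, more cells of a type and more RNA per cell cannot be told apart.

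To determine which members differed after ON-CR, all genes were fitted with limma on log2(value + 1), and adjusted p-values are over all 25755 genes. Il1a, Il1rn and Il33 rose, and no member fell. Thus 3 of 10 members were called higher at an adjusted p at or under 0.05, beside 0.971% of all genes (250 of 25755), and 0 of 10 were called lower, beside 1.13% (290 of 25755). In either direction, 2.10% of genes were called. Members and lists were chosen with earlier results of these data known, so these shares describe them and do not test them. Among genes with a value of at least 10 in every mouse, 2 of the 6 members tested were called, beside 3.69% of genes. At an unadjusted p under 0.05 stood 15.6% of all genes (4016 of 25755), 7.37% higher and 8.22% lower, against which the unadjusted counts given for the lists are to be read. When libraries were scaled to the same total instead, 421 genes were higher and 195 lower. Groups did not overlap for 5 members that were higher (Il1a, Il1rn, Il33, Il18bp and Il1r1) and for 1 that was lower (Il1rap), beside 10.5% and 11.0% of all genes and 21.6% in either direction. The median log2 fold change was 0.95 over the 10 members and 0.03 over all genes. By role, 3 of the 6 ligands, antagonist and binding protein were called, and 0 of the 4 receptors by limma, of which Il1r1 was higher and Il1rap lower at an unadjusted p under 0.05. With 1 mouse left out, between 0 and 3 members were called, with 0 without sham mouse 1, sham mouse 3 or ON-CR mouse 6. An exact permutation test of a single gene cannot give a p under 0.1 with 3 mice against 3, and gave 0.1 for each of the 6 members whose groups did not overlap.

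**Figure D1:**
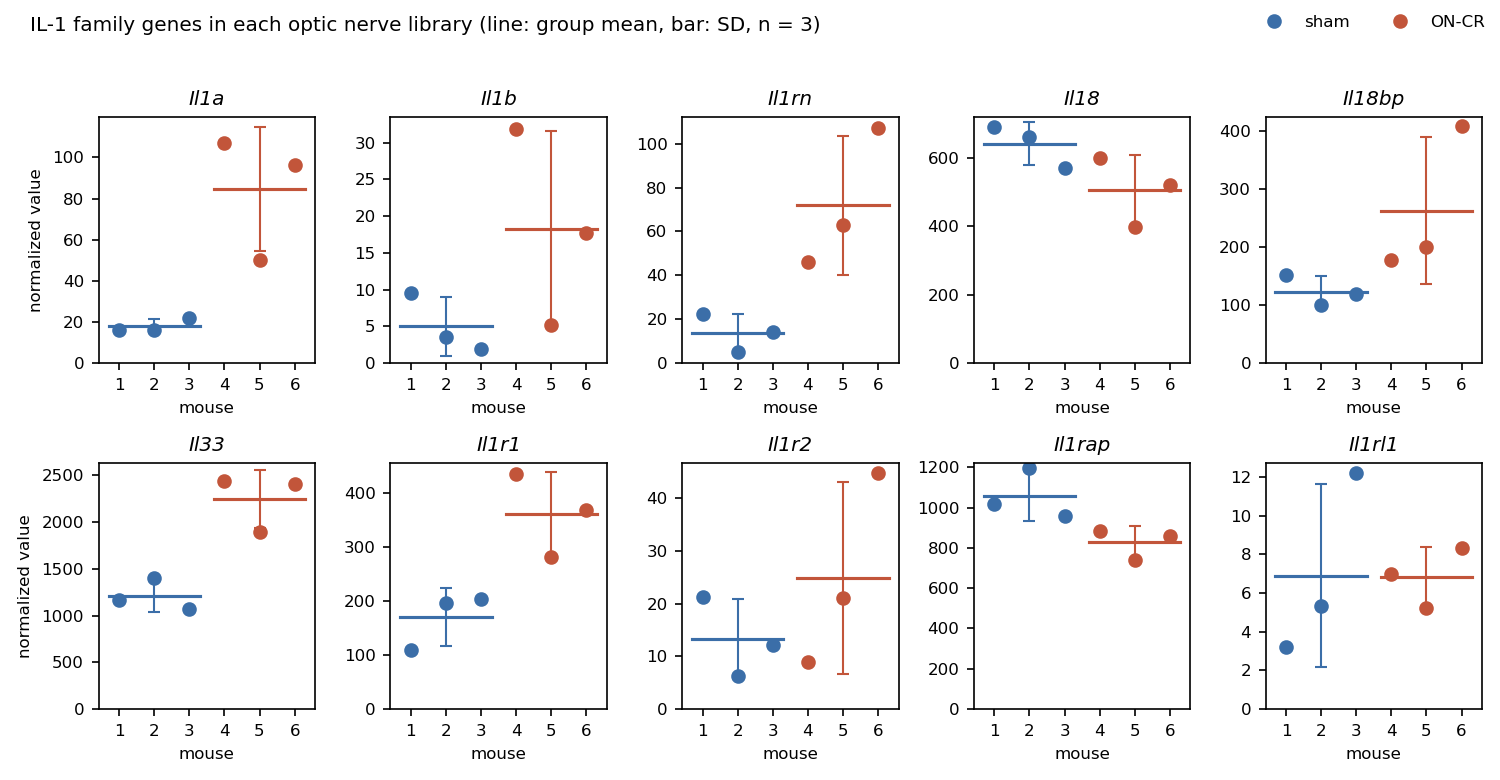
Normalized values of the 10 genes (y axis, linear, from 0) in each mouse (x axis); points are single libraries, lines are group means and bars the SD of 3 mice. The 3 ON-CR values of Il1a lie between 50.3 and 107, above all sham values, whereas those of Il1b range from 5.24 to 31.9 and overlap the sham group.

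Il1a, which encodes IL-1alpha, an alarmin active without cleavage, had low levels without crush, and sham mice 1, 2 and 3 showed values of 16.4, 15.9 and 22.1. ON-CR mice 4, 5 and 6 had 107, 50.3 and 96.1. Every ON-CR mouse was above every sham mouse, and ON-CR mouse 5 was the lowest of its group. The means were 18.1 ± 3.44 after sham surgery and 84.5 ± 30.1 after crush (± SD of 3 mice), a log2 fold change of 2.10 ± 0.37 (SE; limma, adjusted p = 0.0195), or 4.29-fold. The gene (ENSMUSG00000027399.1, chr2:129299610-129309972 of GRCm38, minus strand) shares 222 exonic bases with Gm14023 on the other strand. Whether counting used strand is not given in the sources used here, so reads of this stretch may belong to either gene. Gm14023 itself had means of 15.2 in sham and 27.5 in ON-CR mice. The adjusted p of Il1a by limma was 0.00471 without ON-CR mouse 5 and rose above 0.05 without any other mouse, to 0.158 without ON-CR mouse 6, 0.102 without sham mouse 2, 0.0779 without sham mouse 1, 0.0631 without ON-CR mouse 4 and 0.0525 without sham mouse 3. Over these fits its log2 fold change stayed between 1.90 and 2.44.

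Il1b (ENSMUSG00000027398.13, chr2:129364570-129371139, minus strand), which lies beside Il1a on chromosome 2, encodes IL-1beta, released after cleavage by caspase-1. In sham mice 1, 2 and 3 the estimated reads were 9, 4 and 2, with normalized values of 9.55, 3.54 and 1.88. For ON-CR mice 4, 5 and 6 they were 32, 5 and 17, with values of 31.9, 5.24 and 17.7. ON-CR mouse 5 lay below sham mouse 1, so the groups overlapped. The log2 fold change of Il1b was 1.60 with a 95% interval from -0.04 to 3.24 (adjusted p = 0.332 by limma), whose upper end is a 9.44-fold rise. The antisense gene Il1bos shares 25 exonic bases with it. The exons of the pair are alike in length (1.97 kb for Il1a and 1.91 kb for Il1b), and per kb Il1a was the higher in each mouse, with a log2 ratio of the value + 1 of 1.87 ± 1.14 after sham surgery and 2.38 ± 0.66 after crush (SD, n = 3 each). These ratios differed by 0.50 between the groups, and an exact two-sided permutation test gave p = 0.6.

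Il1rn (ENSMUSG00000026981.15, chr2:24336853-24351494, plus strand), encoding the IL-1 receptor antagonist, had the largest fitted fold change of the members, though not in the fit without sham mouse 2 (log2 1.87, against 2.02 for Il1a). It was at 22.3, 5.31 and 14.1 in sham mice 1, 2 and 3, against 45.9, 62.9 and 107 in ON-CR mice 4, 5 and 6. The groups did not overlap, with the highest value in ON-CR mouse 6. The means were 13.9 ± 8.49 after sham surgery and 71.9 ± 31.5 after crush (± SD of 3 mice), a log2 fold change of 2.40 ± 0.52 (SE; limma, adjusted p = 0.0468). This was close to the threshold. With limma no fit lacking a mouse reached the threshold, the adjusted p being 0.0634, 0.154 and 0.117 without sham mouse 1, 2 or 3 and 0.0551, 0.0524 and 0.261 without ON-CR mouse 4, 5 or 6. It was 0.0509 when genes with a mean under 10 were dropped. Secreted and intracellular forms of the antagonist start at different sites (shown above), and counts per gene do not separate them.

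To ask whether the antagonist moved relative to its ligands, log2 ratios were taken within each mouse. The ratio of Il1rn to Il1a was -0.54 ± 0.93 in sham and -0.24 ± 0.84 in ON-CR mice, and that of Il1rn to Il1b was 1.34 ± 0.97 and 2.13 ± 1.46 (SD, n = 3 each). Neither differed beyond the spread between mice, with two-sided exact permutation p-values of 0.8 and 0.4 and adjusted values of 0.8 over the 6 ratios computed.

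Il33 (ENSMUSG00000024810.16, chr19:29925114-29960718, plus strand) was the most abundant of the called members per kb of exon. Sham mice 1, 2 and 3 had normalized values of 1164, 1398 and 1066, and ON-CR mice 4, 5 and 6 had 2441, 1889 and 2407. The lowest ON-CR value, in mouse 5, exceeded the highest sham value. The means were 1209 ± 171 after sham surgery and 2246 ± 309 after crush (± SD of 3 mice), a log2 fold change of 0.89 ± 0.14 (SE; limma, adjusted p = 0.0136), or 1.86-fold. Its adjusted p (limma) in fits lacking sham mouse 1, sham mouse 3 or ON-CR mouse 6 was 0.0688, 0.0629 and 0.124, and it stayed under 0.05 without each of the other 3 mice, down to 0.00376. Of the 3 genes called, Il33 alone kept an adjusted p at or under 0.05 when a term for airway transcripts was added (0.0216 by limma), where Il1a was at 0.0602 and Il1rn at 0.139. Their log2 fold changes in that fit were 2.13 for Il1a and 2.21 for Il1rn. In the mice with few airway transcripts (sham 1 and 2, ON-CR 4), the log2 difference was 2.66 for Il1a, 1.95 for Il1rn and 0.94 for Il33, and in those with many (sham 3, ON-CR 5 and 6) it was 1.61, 2.46 and 1.00.

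The receptor of IL-33, ST2 (Il1rl1, ENSMUSG00000026069.15, chr1:40429570-40465415, plus strand), had few reads. Sham mice 1, 2 and 3 had 3.18, 5.31 and 12.2, and ON-CR mice 4, 5 and 6 had 6.98, 5.24 and 8.31. Over all 6 libraries these values rested on 3 to 13 estimated reads. The groups overlapped fully, with a log2 fold change of 0.14 whose 95% interval ran from -1.20 to 1.47 (adjusted p = 0.940 by limma), which covers both a lower and a higher level after crush. The log2 ratio of Il33 to Il1rl1 was 7.42 ± 0.95 after sham surgery and 8.17 ± 0.14 after crush (SD, n = 3 each; exact permutation p = 0.2).

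Il18 (ENSMUSG00000039217.13, chr9:50554827-50581840, plus strand), another caspase-1 substrate, was abundant in both groups. It was at 690, 661 and 570 in sham mice 1, 2 and 3, against 600, 396 and 521 in ON-CR mice 4, 5 and 6. ON-CR mouse 4 lay above sham mouse 3, and the log2 fold change came to -0.36 ± 0.17 (SE; limma, adjusted p = 0.346). Its inhibitor Il18bp (ENSMUSG00000070427.4, chr7:102014885-102018690, minus strand) had values of 152, 100.05 and 119 in sham mice 1, 2 and 3. ON-CR mice 4, 5 and 6 had 178, 201 and 409. Here the groups did not overlap, but ON-CR mouse 6 stood well above the others, and the log2 fold change of 1.00 (standard error 0.30) had an adjusted p of 0.138 by limma. It was 0.63 without ON-CR mouse 6. Il18bp shares 80 exonic bases with Numa1. The log2 ratio of Il18bp to Il18 was -2.18, -2.71 and -2.25 after sham surgery, and after crush it was -1.74, -0.97 and -0.35 for mice 4, 5 and 6. All ON-CR ratios were higher, by 1.36 on average. The exact permutation p of 0.1, the smallest this design allows, was 0.6 after adjustment over 6 ratios.

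Among the receptors, Il1r1 (ENSMUSG00000026072.12, chr1:40225080-40317257, plus strand), the signaling chain for IL-1alpha and IL-1beta, was at 109, 197 and 205 in sham mice 1, 2 and 3, against 436, 282 and 370 in ON-CR mice 4, 5 and 6. No ON-CR value fell within the sham range. The mean was 170 ± 53.1 after sham surgery and 362 ± 77.1 after crush (SD, n = 3 each), and the log2 fold change of 1.12 (standard error 0.26) just missed the threshold (adjusted p = 0.0610 by limma). It passed in 4 of 16 other settings, namely without ON-CR mouse 5 (adjusted p = 0.0273 by limma), with a robust fit (0.0454), with sample quality weights (0.0361) and with libraries scaled to the same total (0.0466). In the 5 fits lacking another mouse its adjusted p by limma lay between 0.0989 and 0.265, and it was 0.165 with the airway term.

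Il1rap (ENSMUSG00000022514.14, chr16:26581704-26730117, plus strand), the accessory chain shared by the receptors for IL-1 and IL-33, was the most abundant receptor gene per kb of exon in both groups. It was at 1017, 1198 and 958 in sham mice 1, 2 and 3. ON-CR mice 4, 5 and 6 had 885, 740 and 861, without overlap. The log2 fold change of -0.35 (standard error 0.13) had an adjusted p of 0.235 by limma. Gm20319 on the other strand shares 552 of its exonic bases. The decoy receptor Il1r2 (ENSMUSG00000026073.13, chr1:40074079-40125231, plus strand) was at 21.2, 6.20 and 12.2 after sham surgery, and at 8.97, 21.0 and 44.6 for ON-CR mice 4, 5 and 6. Its groups overlapped, with a log2 fold change of 0.75 (95% interval from -0.66 to 2.15, adjusted p = 0.626 by limma), and 0.21 without ON-CR mouse 6. The log2 ratio of Il1r2 to Il1r1 was -3.69 ± 1.26 after sham surgery and -4.05 ± 1.26 after crush (SD, n = 3 each; exact permutation p = 0.8).

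**Figure D2:**
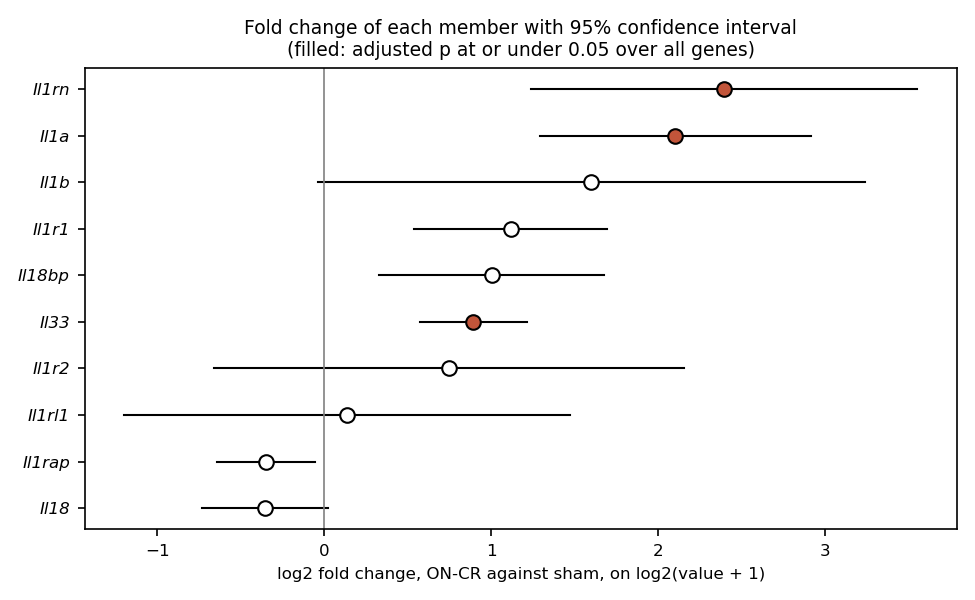
Log2 fold change of each gene (x axis, ON-CR against sham, on log2(value + 1)), with lines for the 95% confidence interval and filled points for an adjusted p at or under 0.05 by limma. The intervals of Il1rn, Il1a, Il33, Il1r1, Il18bp and Il1rap do not include 0, and only the first 3 of these passed the adjustment over all genes.

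Levels of different genes were compared as normalized values per kb of exon, using the merged exons of the GRCm38 gene models, which for Il1rn (5.54 kb) include longer variant transcripts. In sham nerves the order was Il18 (621 ± 60.7), Il33 (419 ± 59.1), Il1rap (93.1 ± 11.01), Il18bp (40.9 ± 8.64), Il1r1 (26.8 ± 8.35), Il1a (9.18 ± 1.74), Il1r2 (6.92 ± 3.96), Il1b (2.62 ± 2.12), Il1rn (2.51 ± 1.53) and Il1rl1 (1.00 ± 0.68). Neighbours from Il18 down to Il1a did not overlap in this group, whereas those from Il1a down to Il1rl1 did. After ON-CR, Il33 at 778 ± 107 per kb stood above Il18 at 491 ± 99.8, without overlap. Il18bp, Il1rap, Il1r1 and Il1a formed a run of overlapping neighbours, between means of 86.9 and 42.8 per kb. Il1r2 (13.0 ± 9.51), Il1rn (13.0 ± 5.70) and Il1b (9.58 ± 6.997) followed, also overlapping, and Il1rl1 (0.99 ± 0.22) was again the lowest.

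**Figure D3:**
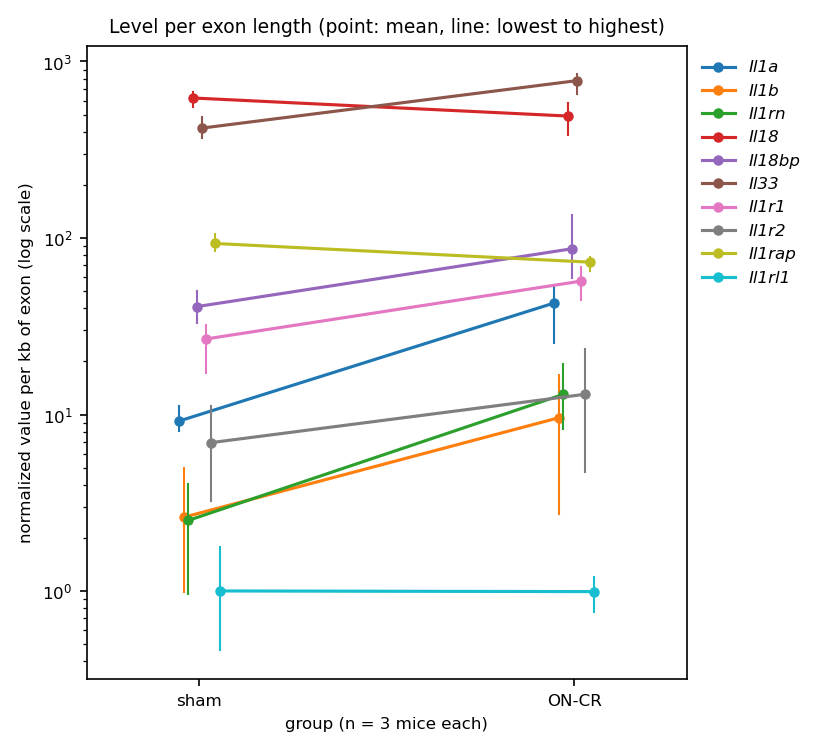
Normalized value per kb of exon (y axis, log scale) of each gene in sham and ON-CR mice (x axis); points are means of 3 mice and vertical lines run from the lowest to the highest mouse. Il33 and Il18 exchange places, from 419 and 621 in sham mice to 778 and 491 in ON-CR mice.

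The 3 ON-CR mice did not contribute equally. Relative to the sham mean of log2(value + 1), the median deviation over the 10 members was 0.78 in ON-CR mouse 4, 0.69 in mouse 5 and 1.45 in mouse 6, with 7, 7 and 8 members above the sham mean. ON-CR mouse 4 had the largest deviation for Il1a (2.51), Il1b (2.67), Il33 (1.02) and Il1r1 (1.40). ON-CR mouse 6 had the largest for Il1rn (3.05), Il18bp (1.74) and Il1r2 (1.83). The same mouse held the high B and plasma cell markers, whose part in these values was not tested. Genes whose pattern was most like that of a called member were found by the Pearson correlation of log2(value + 1) over the 6 mice among genes with a mean of at least 50, as a description that also follows the difference between the groups. For Il1a they were Gpr84, a receptor of activated myeloid cells (r = 0.996), Gm37760 and Gm16580. For Il1rn they were Aprt (r = 0.992), Ftl2-ps and Pkib, and for Il33 Gm20274 (r = 0.998), Sgpl1 and Tmed7. With 6 mice such values are common, since 200, 67 and 136 of the 14435 or 14436 genes compared reached at least 0.95 with Il1a, Il1rn and Il33.

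Markers of the cells that could carry these transcripts moved with some of the results. Of 10 microglia and macrophage markers, 2 were called higher after ON-CR (Aif1 and Cd68) and 0 lower by limma, beside 0.971% and 1.13% of all genes. At an unadjusted p under 0.05, 7 of the 10 were higher, beside 7.37% of all genes, whereas P2ry12 and Tmem119, markers of resting microglia, had log2 fold changes of -0.35 and -0.27 that did not pass it. The summed values of the 10 were 15040 to 19531 in sham and 19331 to 29084 in ON-CR mice. Neutrophil and monocyte markers, a further source of IL-1 and of the decoy receptor, summed to 322 to 710 in sham and 400 to 1266 in ON-CR mice, and 0 of 9 were called by limma or at an unadjusted p under 0.05. Their part in the rise of Il1a and Il1rn was not tested. Keratinocyte markers, from cells that hold Il1a and Il1rn, summed to 261 to 369 and 294 to 399, with 0 of 8 called by limma or at an unadjusted p under 0.05. Oligodendrocyte markers summed to 1291757 to 1846988 in sham and 630534 to 745597 in ON-CR mice. Limma called 7 of 10 lower, among them Mbp and Mog, beside 1.13% of all genes, while Il33 rose. Mbp made up 63.5% of this sum, and the other 9 markers summed to 477059 to 593743 and 245632 to 332698. Olig2, also on the list, was not called, with overlapping groups and means of 291 in sham and 285 in ON-CR mice. By staining, the paper found a larger share of Olig2-positive cells after crush. Whether the nerves held fewer oligodendrocytes was not tested. Astrocyte markers summed to 187578 to 226311 in sham and 261166 to 294767 in ON-CR mice. Of these 8, limma called 1 lower (S100b) and 0 higher, beside 1.13% and 0.971% of all genes. At an unadjusted p under 0.05, 3 of them were higher, beside 7.37% of all genes. Gfap made up 60.3% of the astrocyte sum, and the other 7 markers overlapped between the groups at 88392 to 104318 and 90460 to 104701. Their part in the rise of Il33 was not tested either. For Il1r1, endothelial markers (3693 to 4239 in sham and 3284 to 4091 in ON-CR mice) and meningeal fibroblast markers (392994 to 436793 and 300668 to 396401) had 0 of 8 members called each by limma, with 1 endothelial and 4 fibroblast markers lower at an unadjusted p under 0.05, beside 8.22% of all genes. Ptgds made up 94.2% of the fibroblast sum, and the other 7 markers summed to 23772 to 28446 after sham surgery and 14740 to 23081 after crush. Mast cells, which carry ST2, had markers summing to 744 to 783 and 574 to 758, with 0 of 6 called by limma. Of these, 1 (Hdc) was higher at an unadjusted p under 0.05, beside 7.37% of all genes, and the other 5 had log2 fold changes below 0. Kit made up 56.3% of the sum.

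The wider pathway was described with 70 genes in lists by role, of which 62 were measured. Of these, 3 were called higher (Cxcl10, Vcam1 and Lcn2) and 0 lower, beside 0.971% and 1.13% of all genes, and the median log2 fold change was 0.22, beside 0.03 over all genes. All 3 belong to the list of genes that IL-1 is known to induce, among other stimuli, where 14 were measured and the median was 0.57. The other 11 were not called by limma, among them Il6, Ptgs2 and Saa3. At an unadjusted p under 0.05, 5 of the 14 were higher and 0 lower, beside 7.37% and 8.22% of all genes. Nos2 alone had a log2 fold change below 0 (-0.84). Lcn2, which encodes the iron-binding protein lipocalin-2, was at 60.5, 38.1 and 50.7 in sham mice 1, 2 and 3, against 611, 647 and 480 in ON-CR mice 4, 5 and 6. Its log2 fold change of 3.53 ± 0.22 (SE; limma, adjusted p = 0.000136) corresponded to 11.5-fold, and its call held in each fit lacking 1 mouse. Cxcl10, a chemokine that attracts T cells, went from 145 ± 69.7 to 541 ± 241 (SD, n = 3 each; log2 fold change 1.95, adjusted p = 0.0407 by limma). Vcam1, an adhesion molecule for leukocytes, went from 1651 ± 148 to 2927 ± 539 (SD, n = 3 each; log2 fold change 0.81, adjusted p = 0.0207 by limma). Of the fits lacking 1 mouse, Cxcl10 was called only in that without ON-CR mouse 5, and Vcam1 in those without ON-CR mouse 4 or 5. Ccl5, the chemokine whose production by microglia the study examined, was at 195, 185 and 617 in sham mice 1, 2 and 3. ON-CR mice 4, 5 and 6 had 342, 148 and 1444. The groups overlapped, with ON-CR mouse 5 the lowest of all 6, and the log2 fold change was 0.57 with a 95% interval from -1.01 to 2.15 (adjusted p = 0.761 by limma).

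Genes for processing and release of the cytokines had a median log2 fold change of 0.52 over the 14 measured, and limma called 0, with 5 higher and 2 lower at an unadjusted p under 0.05, where 15.6% of all genes stood. Casp4, the inflammatory caspase that senses lipopolysaccharide, had the largest difference, with values of 24.4, 8.85 and 28.2 in sham mice 1, 2 and 3, against 74.8, 32.5 and 133 in ON-CR mice 4, 5 and 6. Its log2 fold change came to 1.85 ± 0.56 (SE; limma, adjusted p = 0.138). Casp1, which cleaves IL-1beta and IL-18, was at 76.9 ± 28.1 after sham surgery and 172 ± 74.2 after crush (SD, n = 3 each; adjusted p = 0.144 by limma) with groups that just overlapped, and Pycard, the adaptor of the inflammasome, at 329 ± 15.4 and 619 ± 232 (SD, n = 3 each; adjusted p = 0.101 by limma). All 3 passed without ON-CR mouse 5 and none of them in the other 5 fits lacking a mouse, and Pycard also passed with sample quality weights. The 2 lower genes, Nek7 and Capn2, had log2 fold changes of -0.59 and -0.44 without overlap of the groups. Their adjusted p-values by limma, 0.0553 and 0.0879, were nearer the threshold than those of these 3. Nek7 passed with a robust fit, without ON-CR mouse 4, and among genes with a value of at least 10 in every mouse.

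Adaptors and kinases downstream of the receptors were the list with the narrowest range of differences. Its 16 genes had a median log2 fold change of 0.01 and a range from -0.28 to 0.30, and limma called 0, with 0 also at an unadjusted p under 0.05. Nfkb1, a subunit of NF-kB, differed most, at 551 ± 99.1 after sham surgery and 671 ± 27.2 after crush (SD, n = 3 each; adjusted p = 0.376 by limma). Of 11 feedback inhibitors, limma called 0, and the median was -0.01. At an unadjusted p under 0.05 stood 1 higher gene, Otulin (log2 fold change 0.68), and 2 lower, beside 15.6% of all genes. The lower genes were Tollip and Nfkbia, with log2 fold changes of -0.36 and -0.56. Zc3h12a, an RNase that degrades cytokine transcripts, was at 10.7 ± 2.82 after sham surgery and 21.8 ± 8.02 after crush (SD, n = 3 each; log2 fold change 0.93, adjusted p = 0.381 by limma). Further ligands and receptors of the family, such as Il18r1 and Il1rl2, had 7 measured genes, 0 of them called by limma or at an unadjusted p under 0.05, and a median of 0.49. Il1rapl2, a receptor-like gene of neurons, had the largest difference there (log2 fold change -1.39, standard error 1.09, adjusted p = 0.589 by limma), with values from 0 to 38.8 within the ON-CR group.

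**Figure D4:**
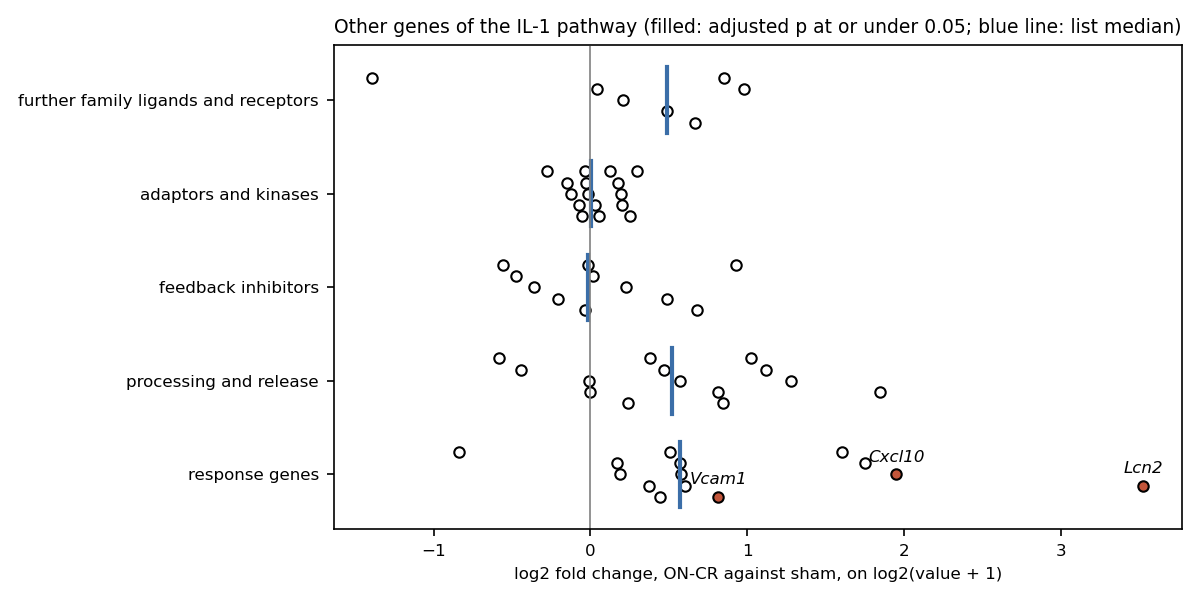
Log2 fold change (x axis, ON-CR against sham, on log2(value + 1)) of 62 further genes of the IL-1 pathway in 5 lists (y axis); filled points have an adjusted p at or under 0.05 by limma and blue lines are list medians. Adaptors and kinases lie between -0.28 and 0.30, and Lcn2, at 3.53, lies farthest to the right.

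**Figure D5:**
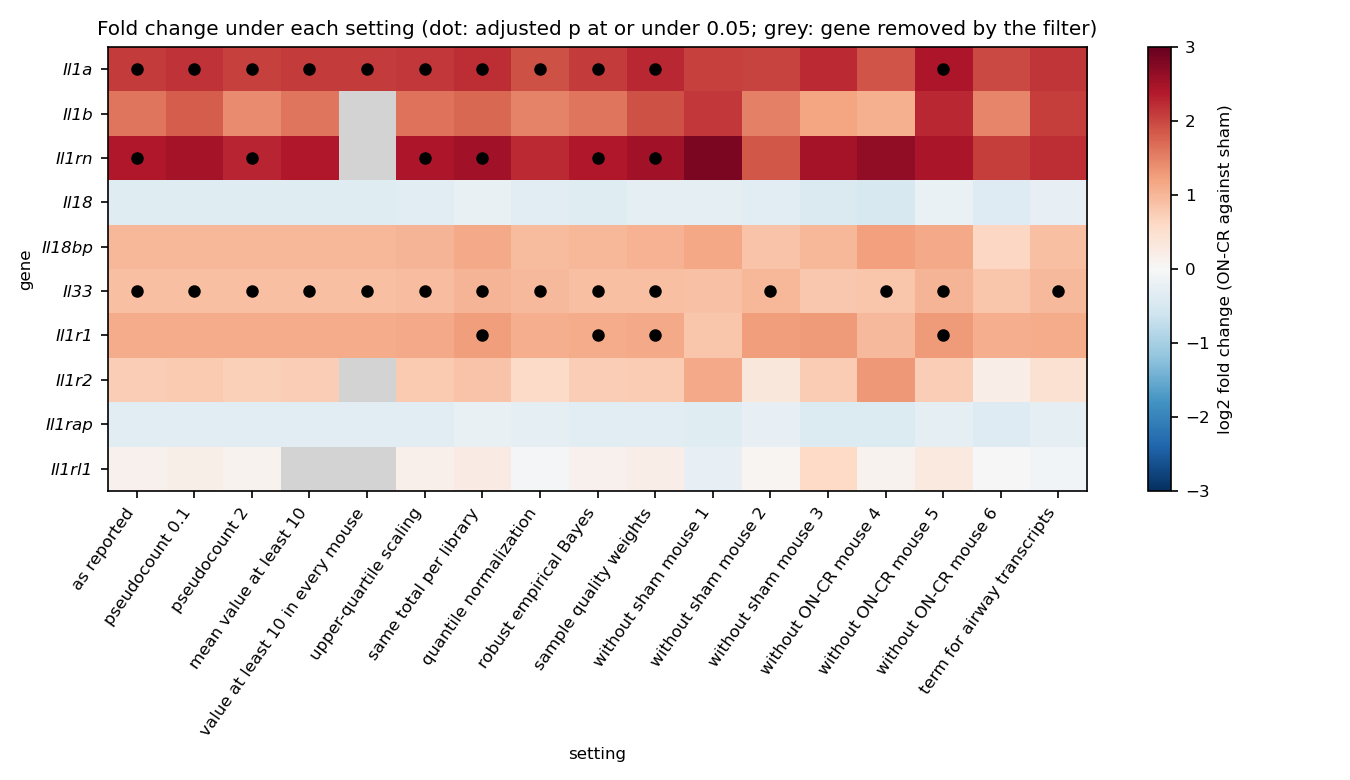
Log2 fold change (color) of each member (rows) as reported and under 16 other settings (columns); dots mark an adjusted p at or under 0.05 by limma, and grey marks genes removed by a filter. Il33 carries a dot in 13 of 16 other settings, Il1a in 10 of 16 and Il1rn in 5 of the 15 in which it was tested.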

How the data were processed

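RNA of optic nerves from 3 sham and 3 ON-CR mice was sequenced in bulk with a low-input SMARTer kit. Alignment and quantification were done by the authors in DRAGEN, with mm10 (GRCm38) and Ensembl genes, followed by median normalization in Partek Flow (version 10.0 in the submitters' processing notes). The deposited values are a normalized signal per gene, counts divided by 1 factor per library, so the DESeq2 test of the study was not run. Mice were grouped by their treatment labels. Reads were estimated from the step between low values of a library, the value of 1 read. From 57.0% to 69.3% of values under 1000 reads came out whole within 0.02, so no count test was run on them, and they served to describe depth and the reads behind low values. They cover counting error only. No pair of libraries in a group agreed within counting error, as a library deposited more than once would (chi-square per degree of freedom 16.6 to 47.4).

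The test was limma (3.58.1, R 4.3.3) on log2(value + 1), with the variance allowed to follow the mean and p-values adjusted by Benjamini-Hochberg over 25755 genes. Members and lists were chosen with earlier results of these data known. Named genes were all members, and of each pathway list those called or, where none was, that with the largest change at a mean of at least 10, with Casp1, Pycard and Ccl5. Nek7, Capn2, Otulin, Tollip and Nfkbia were named in addition after the results were seen. Other pseudocounts, filters, scalings and fits, and leaving out each mouse, were tried. Gene models are from GENCODE (97.3% of symbols matched) and upstream sequences from RefSeq on GRCm38.p6, matched by symbol for all 10 members. List genes without a match were not analysed here. P-values measure the spread between these 6 libraries, each labeled as 1 mouse.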

Additional observations from a re-analysis of the deposited data

How the results depend on the processing

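Il1a, Il1b, Il1rn, Il33, Il1r1, Il18bp and Il1r2 stayed higher, and Il18 and Il1rap lower, in ON-CR mice under all settings in which they were tested. Il1rl1 changed sign, to a log2 fold change of -0.039 with quantile normalization and -0.079 with a term for airway transcripts, which was added after the data were seen, and lay between -0.24 and 0.59 in the fits that lacked 1 mouse. Leaving out a mouse gave 0 to 3 members called, 1 to 7 pathway genes and 67 to 854 of all genes. ON-CR mouse 6 moved the count of all genes most downward (67) and ON-CR mouse 5 most upward (854), with 192, 123 and 258 genes without sham mouse 1, 2 or 3. These fits have fewer samples. The airway term left 1 member (Il33), 1 pathway gene (Lcn2) and 233 genes in all, with log2 fold changes of 2.13 for Il1a and 2.21 for Il1rn. Among the other settings, the genes called higher went from 250 to 421 with scaling to the same total and to 388 with sample quality weights, and the counts in both directions together moved by no more than 1.5 times. Il1rn lost its call with a pseudocount of 0.1 (adjusted p = 0.0573 by limma), with quantile normalization (0.0637) and when genes with a mean under 10 were dropped (0.0509). Scaling to the same total shifted the median log2 fold change of all genes to 0.15. On that scale 4 members were called, Il1r1 in addition. A filter of at least 10 in every mouse removed Il1b, Il1rn, Il1r2 and Il1rl1. Il1b, with 2 to 9, and Il1rl1, with 3 to 13, had few estimated reads in the sham mice, and the part of depth in their intervals was not tested. No paired analysis was possible because the groups share no mouse number.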
